A study of Mus musculus with 3 samples.

Results

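The ETS family transcription factors described here are 10 genes, Ets1, Ets2, Fli1, Erg, Elf1, Elf4, Spi1, Spib, Gabpa and Elk4, among 19938 named genes measured in normal thymocytes. A gene was taken from the array's probe sets that the platform annotation gives exactly 1 symbol, and probe sets of the same gene were averaged. All 10 genes had such a probe set; Elf4 had 2 and each of the others 1. The samples were thymocytes, T cells in development, from 3 wild-type (wt) mice numbered 92, 103 and 106, on a mixed FVB and C57BL6 background, with no treatment in the labels, and each was hybridised to an Affymetrix MoGene 1.0 ST array, which reads a transcript with a set of short probes along its length. They are the normal group of a study of thymic lymphoma. The lymphomas were not analysed here, so no difference between tumour and normal cells is given. The labels give neither age nor sex, put the RNA integrity number at 3 with 0.3 µg of RNA for each sample, and enter a T cell lymphoma under disease state for all 3 although titles and genotypes read wild type.

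ETS factors share a winged helix-turn-helix domain that binds DNA around the core GGAA, and the flanking bases together with partner proteins set which sites a member uses. During T cell development the roster changes: the progenitor and myeloid members ERG and PU.1 (the product of Spi1) are switched off as cells commit to the T lineage, while ETS1 and its relatives serve the T cell receptor genes, signalling and survival. The 10 genes were therefore read in 2 classes, 7 that are transcribed in T cells or in most cells (Ets1, Ets2, Fli1, Elf1, Elf4, Gabpa and Elk4) and 3 known mainly from progenitor, myeloid and B cells (Erg, Spi1 and Spib).

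Each array gave 35557 probe set levels. Their log2 medians were 6.70 in mouse 92, 6.71 in mouse 103 and 6.72 in mouse 106. Precision is limited throughout by having 3 arrays. How the RNA integrity number of 3 bears on low signals and on differences between probe sets was not tested. The log2 scale was inferred from the values, and how the arrays were normalised and centred is unknown. Background was taken as the 95th percentile of 1207 olfactory, vomeronasal and trace amine receptor genes on the same array, which lay at 5.91, 6.10 and 6.002 in mice 92, 103 and 106, and a gene was called above background when it passed on all 3 arrays. Probes differ in affinity, so each gene was called against the background of its own array, and the levels of different genes are not ranked. Where genes are banded by level or summed over a list below, a gene counts by the brightness of its probes. The thymocyte label fitted the markers: all 14 measured thymocyte genes were above background, against 61.8% of all named genes. Among them were Cd3e at 12.05 ± 0.08, Cd8a at 13.21 ± 0.03 and the recombinase gene Rag1 at 13.59 ± 0.22 (log2 level ± SD, n = 3). The mice also differed in transcripts linked to sex, which the labels do not give. Xist, from the X chromosome, read 5.30, 11.85 and 11.67 in mice 92, 103 and 106, and the Y chromosome genes Eif2s3y (10.42, 3.59 and 3.55), Uty (9.74, 3.91 and 4.13) and Kdm5d (9.69, 5.19 and 4.80) ran the opposite way. Mouse 92 therefore stood apart from the other mice in these 4 genes, which were singled out after their values were seen.

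Of the 10 ETS genes, 8 were above background, against 61.8% of all named genes. All 7 genes of the T lineage and broad class passed, by at least 1.40 on the log2 scale on their weakest array (Elf4, averaged over 2 probe sets that disagree; 3.55 with the higher one alone), whereas in the progenitor, myeloid and B cell class Spib passed narrowly, Spi1 passed on 2 of 3 arrays and Erg passed on none. The classes were drawn up with levels of these arrays known, so this split is a description.

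**Figure D1:**
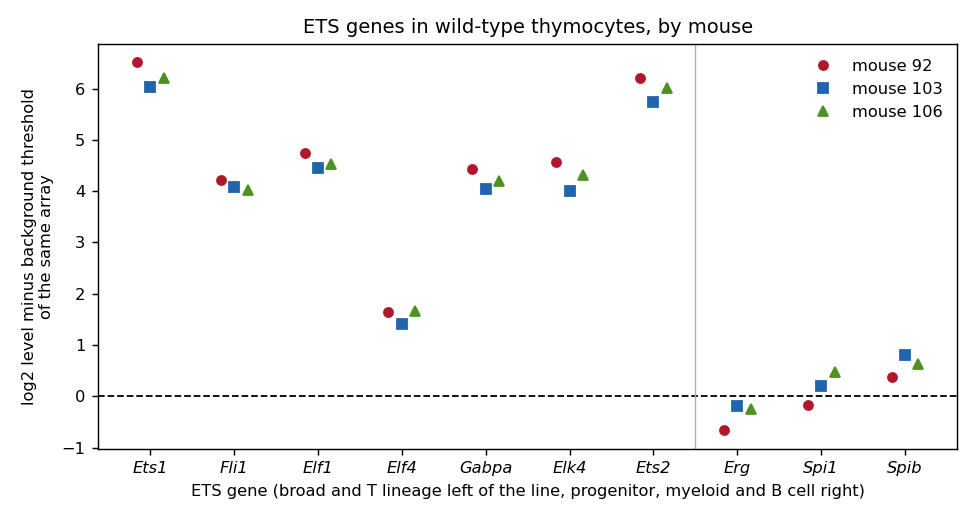
The log2 level of each ETS gene minus the background threshold of the same array, with 1 symbol per mouse and the threshold as a dashed line at 0. The 7 genes left of the vertical line lie at 1.40 or more above the threshold, the lowest being Elf4, drawn as the average of 2 probe sets of which the higher lies at 3.55 or more, and Erg, Spi1 and Spib lie between -0.66 and 0.81.

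Ets1 and Ets2 encode the founding members, activators with a regulatory domain that ERK kinases phosphorylate; ETS1 acts at T cell receptor gene enhancers together with RUNX1. In mice 92, 103 and 106 the log2 level of Ets1 was 12.42, 12.12 and 12.21 (12.25 ± 0.16, SD, n = 3). Its level exceeded the background threshold by 6.51, 6.02 and 6.21 in the same mice. Ets2 was at 12.11, 11.84 and 12.01 (11.99 ± 0.14, SD, n = 3), or 5.74 above the threshold at the least. Both genes were highest in mouse 92 and lowest in mouse 103, by 0.30 for Ets1 and 0.27 for Ets2 on the log2 scale.

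Fli1 and Erg form a pair of close relatives that act together in blood stem cells, in megakaryocytes and in vessel walls. Fli1 read 10.14, 10.17 and 10.02 on the log2 scale in these mice (10.11 ± 0.08, SD, n = 3), at least 4.01 above background. Erg, a regulator of stem cell maintenance whose transcription fades as thymic progenitors commit, read 5.25, 5.91 and 5.77 (5.64 ± 0.35, SD, n = 3). Its level minus the threshold was -0.66, -0.19 and -0.24 in these mice, so Erg was not above background on any array.

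These 4 genes stand as neighbours in the mouse genome. In the RefSeq annotation of assembly GRCm38.p6, Fli1 lies beside Ets1 on chromosome 9 and Erg beside Ets2 on chromosome 16, with 0 protein-coding genes between the partners of either pair. On chromosome 9 both neighbours were above background; on chromosome 16 Ets2 was and Erg was not. The RefSeq promoter windows of the chromosome 16 pair (300 bases spanning the annotated start, GRCm38.p6, C57BL/6J) are shown because the neighbours differed in background call. The Ets2 window (chr16:95702157-95702456, + strand) is 71.7% G and C with 30 CpG sites, and the window of the most upstream of 3 Erg starts (chr16:95586544-95586843, - strand) is 50.3% G and C with 16. The median over all 32851 windows of the table is 52.7% and 7 CpG sites. Both are written 5′ to 3′ on the strand of the gene, in lower case throughout because neither holds a match to the motifs described below.
Ets2 promoter: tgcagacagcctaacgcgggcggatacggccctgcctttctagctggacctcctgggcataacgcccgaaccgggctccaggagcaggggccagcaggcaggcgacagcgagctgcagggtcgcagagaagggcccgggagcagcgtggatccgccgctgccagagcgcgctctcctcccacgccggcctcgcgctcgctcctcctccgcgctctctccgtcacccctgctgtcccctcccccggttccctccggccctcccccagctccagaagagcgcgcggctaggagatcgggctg
Erg promoter: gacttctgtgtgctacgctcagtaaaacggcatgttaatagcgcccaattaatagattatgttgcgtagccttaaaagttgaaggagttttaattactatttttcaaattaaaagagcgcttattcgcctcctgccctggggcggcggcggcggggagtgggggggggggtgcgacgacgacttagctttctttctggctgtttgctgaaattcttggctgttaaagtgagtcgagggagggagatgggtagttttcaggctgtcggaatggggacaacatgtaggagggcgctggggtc

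Elf1 and Elf4 belong to the ELF group. ELF1 is known from human T cells to bind the gene of the T cell receptor zeta chain, and ELF4, also named MEF, restrains proliferation of CD8 T cells through KLF factors and is needed for natural killer cells. Elf1 read 10.66, 10.56 and 10.53 on the log2 scale in mice 92, 103 and 106 (10.58 ± 0.07, SD, n = 3). Elf4 averaged 7.57, 7.501 and 7.67 over its probe sets in the same mice, but the 2 probe sets disagreed. Probe set 10604393 read 9.68, 9.66 and 10.03, well above the threshold on each array. Probe set 10604403, which the annotation ties to a single cDNA clone, read 5.46, 5.35 and 5.31 and was below it on each array. The average of Elf4 therefore describes neither, and with the higher probe set alone its level was 9.79 ± 0.21 (SD, n = 3). The level of Elf4 passed the threshold either way.

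Gabpa and Elk4 are the broadly transcribed members with the clearest partners. GABPA binds DNA as a complex with GABPB, serves housekeeping and mitochondrial genes and, in T cells, the IL-7 receptor gene; ELK4, also named SAP-1, is a ternary complex factor that joins serum response factor, is switched on by ERK and is needed for positive selection. The log2 level of Gabpa was 10.34, 10.14 and 10.19 in mice 92, 103 and 106 (10.22 ± 0.10, SD, n = 3). Elk4 was at 10.47, 10.10 and 10.32 (10.30 ± 0.19, SD, n = 3). Each lay at least 4.001 above the background threshold on every array, and both were highest in mouse 92 and lowest in mouse 103. Elk4 ranged over 0.37 between mice on the log2 scale, as did the higher probe set of Elf4.

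Promoter windows of 7 of the 10 genes were in the RefSeq table (Ets2, Erg, Elf1, Elf4, Spib, Gabpa and Elk4). Those of Gabpa and Elk4 are shown because they alone among these 7 hold any of the 3 spellings sought here. The core GGAA with other flanking bases was not sought, so the other windows may still hold ETS sites. CCGGAAGT, the site favoured by most of the family, GABPA, ELK4 and ETS1 included, and its first letters CCGGAAG were sought on both strands, as was GAGGAAGT, the site favoured by PU.1 and SPI-B; CCGGAAG is contained in CCGGAAGT. Of all 32851 windows, 3.89% hold CCGGAAGT, 8.86% hold CCGGAAG and 3.20% hold GAGGAAGT. The window of the most upstream of 3 Elk4 starts (chr1:132007370-132007669, + strand) holds CCGGAAGT from 68 bases and GAGGAAGT from 192 bases before the start. The Gabpa window (chr16:84834874-84835173, + strand) holds GAGGAAGT from 113 bases before the start and CCGGAAG on the opposite strand from 93 bases before it. Capitals mark these matches, which describe letters and not occupied sites.
Elk4 promoter: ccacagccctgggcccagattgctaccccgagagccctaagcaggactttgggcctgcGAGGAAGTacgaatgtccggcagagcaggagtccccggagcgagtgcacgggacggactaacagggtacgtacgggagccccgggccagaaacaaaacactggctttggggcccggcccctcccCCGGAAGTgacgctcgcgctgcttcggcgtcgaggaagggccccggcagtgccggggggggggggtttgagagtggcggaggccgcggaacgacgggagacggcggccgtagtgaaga
Gabpa promoter: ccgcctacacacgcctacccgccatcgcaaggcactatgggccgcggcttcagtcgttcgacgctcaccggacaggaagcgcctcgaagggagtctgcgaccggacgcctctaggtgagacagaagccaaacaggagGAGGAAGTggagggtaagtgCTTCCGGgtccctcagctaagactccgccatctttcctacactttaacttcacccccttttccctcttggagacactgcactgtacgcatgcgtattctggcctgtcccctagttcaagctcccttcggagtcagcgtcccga

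Spi1 and Spib encode PU.1 and SPI-B, close relatives of the SPI group. PU.1 drives macrophage and neutrophil programmes and is active in early thymic progenitors until commitment; SPI-B acts in B cells and plasmacytoid dendritic cells and is also known from early thymocytes and medullary epithelium. In mice 92, 103 and 106 the log2 level of Spi1 was 5.74, 6.31 and 6.47 (6.17 ± 0.38, SD, n = 3), with margins of -0.17, 0.21 and 0.47 against the threshold. Spi1 was thus just below background in mouse 92 and just above it in the other mice, and without mouse 92 it passed on both remaining arrays. Spib was at 6.30, 6.91 and 6.64 in mice 92, 103 and 106 (6.61 ± 0.31, SD, n = 3), with margins of 0.38, 0.81 and 0.64. It passed on every array, but with background set at the receptor genes' 99th percentile it passed on none, with a lowest margin of -0.39. At that stricter threshold 7 of the 10 genes passed, against 46.8% of all named genes. The Spib promoter window (chr7:44532022-44532321, - strand) is shown as a CpG-poor counterpart: it has 2 CpG sites at 58.0% G and C, and none of the 3 motif spellings, so it stands in lower case.
Spib promoter: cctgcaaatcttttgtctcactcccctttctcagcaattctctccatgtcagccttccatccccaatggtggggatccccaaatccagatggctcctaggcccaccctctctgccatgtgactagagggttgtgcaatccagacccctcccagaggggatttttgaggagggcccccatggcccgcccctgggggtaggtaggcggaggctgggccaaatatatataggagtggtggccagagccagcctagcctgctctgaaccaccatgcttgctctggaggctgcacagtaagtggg

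The spread between mice was tested with limma across 13314 genes above background on at least 1 array, each gene's variance being set against the prior variance of genes of like level. Of these genes 0.225% (30) passed at a threshold of 0.05 for the adjusted p, and 4.84% were under 0.05 without adjustment; the 4 with the widest spread for their level were Xist, Eif2s3y, Uty and Kdm5d. None of the 9 ETS genes tested passed; 1 had an unadjusted p under 0.05, and the counts were also 0 and 1 with a robust prior. That gene was Spi1, with an SD 2.14 times its prior SD (adjusted p = 0.95, limma), followed by Spib at 1.83 times (adjusted p = 0.996). The 7 genes of the T lineage and broad class had ratios between 0.47 for Elf1 and 1.32 for Elk4. Elf4 entered at 0.55 as the average of its probe sets and was at 1.44, above Elk4, with the higher one alone (adjusted p = 0.995, limma). The median of the 9 was 1.01, against 0.86 over all genes tested. Erg was below background on every array and was not tested. A miss says little about small differences: among the 30 genes that passed, the narrowest range between mice was 1.45 on the log2 scale, and the widest range of an ETS gene was the 0.73 of Spi1. These p-values measure only the spread between these 3 samples.

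**Figure D2:**
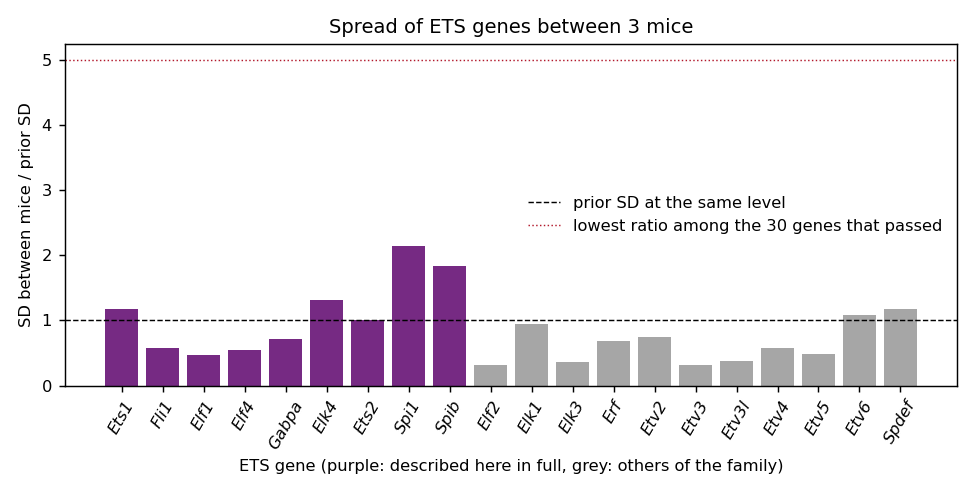
The SD between mice divided by the prior SD at the same level, for the ETS genes that were tested, with the genes described in full in purple and other family members in grey. Elf4 is drawn at 0.55, from the average of its probe sets. The highest ETS bar is Spi1 at 2.14, and the dotted line at 4.995 is the lowest ratio among the 30 genes that passed.

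The classes leaned in opposite directions between mice. Erg, Spi1 and Spib were all lowest in mouse 92, with deviations from the 3-mouse mean that averaged -0.38, 0.23 and 0.15 in mice 92, 103 and 106. The 7 T lineage and broad genes averaged 0.10, -0.08 and -0.01 in the same order, and 5 of them (Ets1, Elf1, Gabpa, Elk4 and Ets2) were highest in mouse 92. The same lean was seen beyond the progenitor, myeloid and B cell class: of the 16 other ETS genes measured, 12 were lowest in mouse 92, Erf, Etv1, Etv3 and Etv4 being the exceptions, and their deviations averaged -0.07, 0.05 and 0.02 in mice 92, 103 and 106. Over all genes tested, 35.1% were lowest in mouse 92. The averages were not tested, Erg was not in the limma test, and no other ETS gene passed it. Genes of like level leaned the same way on these arrays. Of 3703 genes with mean levels between those of Erg and Spib, 52.3% were lowest in mouse 92, and of 1547 genes at or above the mean level of Fli1, 58.2% were highest in mouse 92. Quantile normalisation of the 3 arrays brought these shares to 46.7% and 43.4%, and cyclic loess to 39.9% and 43.9%. Under both, Erg, Spi1 and Spib were still lowest in mouse 92 (range between mice 0.61, 0.70 and 0.59 after quantile normalisation, 0.53, 0.70 and 0.53 after cyclic loess), and 5 of the 7 other genes were still highest there. In the deposited values, without further normalisation, the median range among the 3703 genes of like level was 0.27. There 181 (4.89%) had a range as wide as that of Spib or wider, and 105 of these (2.84% of the 3703) were also lowest in mouse 92. The band, the width and the mouse were all taken from the values of Erg, Spi1 and Spib. These shares are therefore a description and no test of the 3 genes.

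Several lists of markers of cell types that transcribe Spi1, Spib or Erg were also lowest in mouse 92, but not all. The plasmacytoid dendritic, endothelial, and megakaryocyte and platelet lists, given below, had their lowest sums in mouse 106. Of all named genes, 61.8% were above background, to be set beside the counts of each list. The macrophage and dendritic list had 10 of 12 genes above background (Csf1r 7.01 ± 0.24, Itgam 7.15 ± 0.48, Lyz2 10.02 ± 0.66; log2 level ± SD, n = 3), with Fcgr3 and Adgre1 on no array, and its summed linear level was 2793, 4588 and 3430 in mice 92, 103 and 106. The neutrophil list had 8 of 12 above background and sums of 939, 3841 and 3198, and S100a8, Ngp, Lcn2, S100a9 and Ltf passed the limma test of spread; Ngp read 6.88, 9.63 and 9.61. The B cell list had 7 of 11 above background and sums of 1136, 2379 and 1880, with Cd79a at 7.12, 8.26 and 8.44, Pax5 at 6.37, 7.39 and 7.14, Ebf1 on no array above background and Cr2 passing the test (adjusted p = 0.048, limma). Gene by gene, mouse 92 was lowest for 9 of the 12 macrophage and dendritic genes, all 12 neutrophil genes and all 11 B cell genes measured. Ctss, Mpeg1 and Adgre1 were lowest in mouse 106. Over all genes tested the share lowest in mouse 92 was 35.1%. It was 52.3% among the 3703 genes with mean levels between those of Erg and Spib. Sums give bright probes more weight and include genes below background: Lyz2 made up 29.8% of the macrophage and dendritic sum, which without it was 2138, 2958 and 2389 in mice 92, 103 and 106. The macrophage and dendritic, neutrophil and B cell lists each had their lowest sum in mouse 92, with and without the brightest gene. That mouse is also the one set apart by Xist and the Y chromosome genes, so sex and mouse cannot be told apart here. The part of such cells in these levels was not tested. In whole thymocyte RNA, fewer cells of a type and less RNA per cell cannot be told apart.

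Early T progenitor genes were mixed, with 9 of 14 lowest in mouse 92 and 5 (Kit, Flt3, Cd34, Gfi1b and Meis1) lowest in mouse 106. Of these genes 11 were above background (Kit 6.80 ± 0.06, Lyl1 6.96 ± 0.32, Tal1 7.12 ± 0.05; log2 level ± SD, n = 3), Meis1, Hoxa9 and Cd34 were on no array, and the sums were 1358, 1800 and 1612 (1198, 1496 and 1350 without Lmo2, the brightest) in mice 92, 103 and 106. Erythroid genes had 3 of 4 above background, with Klf1 on no array, Alas2 passing the test of spread (adjusted p = 0.0029, limma), and sums of 508, 1558 and 1359; all 4 were lowest in mouse 92. Thymocyte genes went the other way: mouse 92 was lowest for 1 of 14 (Bcl11b), mouse 103 for 8 and mouse 106 for 5. Their sums were 86359, 78886 and 81739 in mice 92, 103 and 106. For comparison with these counts, 35.1% of all genes tested were lowest in mouse 92. The share was 52.3% between the mean levels of Erg and Spib, and 18.8% at or above that of Fli1. In the other lists mouse 92 was lowest for 1 of 5 plasmacytoid dendritic, 3 of 11 endothelial, 1 of 4 megakaryocyte and platelet and 3 of 8 thymic epithelial genes. All list counts above background stand against 61.8% of all named genes. Plasmacytoid dendritic genes, all 5 above background (Siglech 6.45 ± 0.12, Tcf4 8.48 ± 0.10, Cox6a2 7.14 ± 0.05), summed to 1227, 1206 and 1200 in the same mice. Endothelial genes, 4 of 11 above background, summed to 1510, 1486 and 1424 (652, 705 and 655 without Pecam1, the brightest); Pecam1, which leukocytes also transcribe, was at 9.65 ± 0.09, while Cdh5 passed on 2 arrays and Kdr, Tek, Tie1, Emcn and Plvap on none. Megakaryocyte and platelet genes, 2 of 4 above background (Itga2b 6.64 ± 0.14, Gp9 6.36 ± 0.16, with Pf4 and Ppbp on no array), summed to 235, 271 and 228. Thymic epithelial genes, 5 of 8 above background (Krt8 7.44 ± 0.44, Krt5 6.14 ± 0.30 above it on 2 arrays, Foxn1 on no array), summed to 1055, 1165 and 1020, or to 612, 767 and 663 without Cldn4, the brightest, so that their lowest sum then fell in mouse 92. Array identifiers in the labels are more alike for mice 92 and 106 than for either with mouse 103, and what they mean is not stated; mouse 106 minus mouse 92 was 0.73 for Spi1, 0.51 for Erg and 0.34 for Spib.

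**Figure D3:**
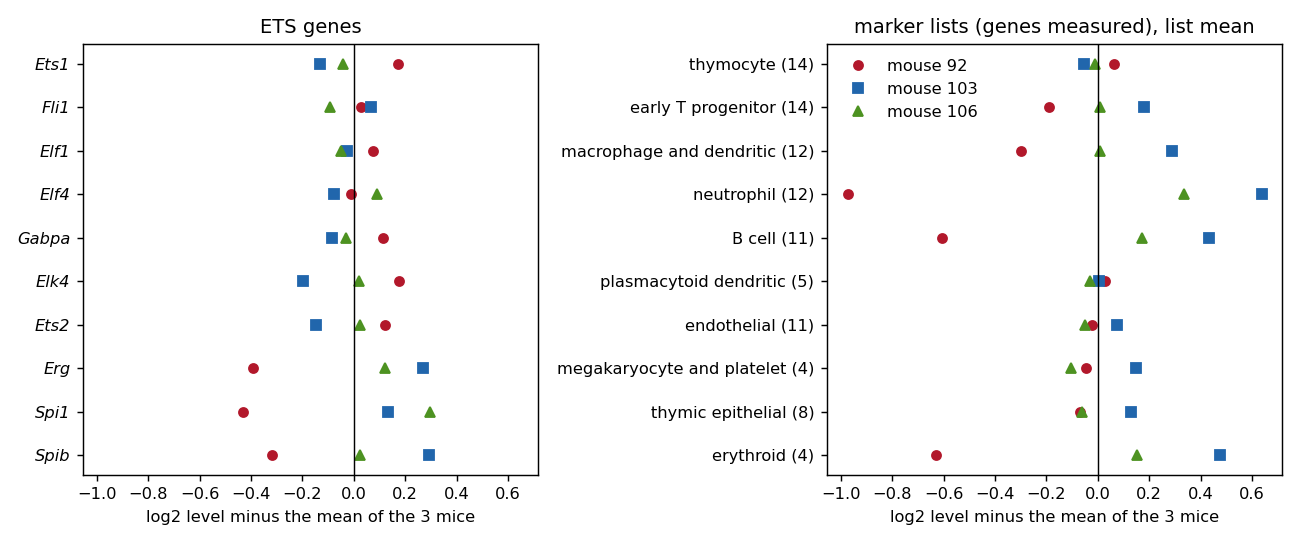
The log2 level in each mouse minus the mean of the 3 mice, for each ETS gene on the left and for the mean of each marker list on the right, with the number of genes measured in brackets. Erg, Spi1 and Spib lie furthest left in mouse 92, as do the neutrophil (-0.97), erythroid (-0.63), B cell (-0.61), macrophage and dendritic (-0.30) and early T progenitor (-0.19) lists. The thymic epithelial list also lies furthest left in mouse 92 (-0.068), close to mouse 106 (-0.062).

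The rest of the family is given by subfamily, some of which split. Of 17 further ETS genes, 16 were measured and 11 were above background, which brings the family to 19 of 26 (73.1%, against 61.8% of all named genes); none of the 11 that were tested passed the limma test of spread, and none had an unadjusted p under 0.05. The ELF group passed in full with Elf2 at 9.79 ± 0.05 (SD, n = 3). The ternary complex factors did too, with Elk1 at 8.54 ± 0.14 and Elk3, also named NET, at 9.61 ± 0.05 beside Elk4. The repressors Erf (8.001 ± 0.10), Etv3 (10.32 ± 0.05) and Etv6 (8.35 ± 0.16), the last a regulator of blood stem cells, were likewise above background, as was the Etv3 relative Etv3l at 6.73 ± 0.06.

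The other 5 ETS genes were above background on no array. Elf3, Elf5 and Ehf form the epithelial group, with log2 levels of 5.80 ± 0.05, 5.39 ± 0.14 and 4.61 ± 0.16 (SD, n = 3). Spic, the SPI gene of red pulp macrophages, read 4.85 ± 0.05 and did not pass, so Spib alone of the 3 SPI genes passed on all arrays. In the PEA3 group Etv5 (7.19 ± 0.08) and Etv4 (6.44 ± 0.10) passed and Etv1 (5.58 ± 0.23) did not. Spdef, an epithelial factor, passed at 7.17 ± 0.19, and Etv2, a factor of early vessel and blood formation, at 6.31 ± 0.13. At the receptor genes' 99th percentile, 15 of the 26 passed, against 46.8% of all named genes, and Etv2, Etv3l, Etv4 and Spib were lost.

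Partners of the broad members were above background in every case, against 61.8% of all named genes. The ETS1 partners Runx1 (10.19 ± 0.17), Runx3 (7.60 ± 0.32) and Cbfb (10.69 ± 0.04) passed, as did the GABPA partners Gabpb1 (10.11 ± 0.16) and Gabpb2 (9.96 ± 0.06; log2 level ± SD, n = 3). The ELK4 partner Srf was at 9.13 ± 0.04, and the rival serum response factor coactivators Mrtfa and Mrtfb were at 9.08 ± 0.07 and 8.29 ± 0.08. Genes of proteins that work with or against PU.1 and SPI-B also read above background. They were Irf8 at 8.05 ± 0.23, Irf4 at 7.16 ± 0.10, Jun at 6.85 ± 0.49, the erythroid factor Gata1 at 6.69 ± 0.24 and the myeloid factor Cebpa at 6.36 ± 0.28. At the receptor genes' 99th percentile Gata1 and Cebpa passed on no array, and Jun did not pass in mouse 106. No gene among these 13 passed the test of spread, and 2 had an unadjusted p under 0.05, Jun (6.88, 7.33 and 6.35 in mice 92, 103 and 106; adjusted p = 0.46, limma) and Runx3 (7.23, 7.75 and 7.83; adjusted p = 0.99, limma).

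All 11 genes listed as described targets were above background, against 61.8% of all named genes. At the receptor genes' 99th percentile Klf4 passed on no array and Fos in mouse 92 only. None of the 11 passed the test of spread or had an unadjusted p under 0.05 (limma). Cd247, the zeta chain gene, was at 9.25 ± 0.05, and Il7r, a GABPA target, at 10.39 ± 0.22 (SD, n = 3). The surface protein genes Thy1 (12.52 ± 0.08), Cd5 (11.22 ± 0.06) and Il2rb (8.67 ± 0.17) are linked to ETS1. The ELF4 targets Klf2 and Klf4 were at 9.16 ± 0.04 and 6.47 ± 0.18. Genes of the serum response, to which ELK4 belongs, were Egr1 at 8.24 ± 0.03, Egr2 at 8.66 ± 0.14, Ier2 at 7.77 ± 0.10 and Fos at 6.84 ± 0.03 (SD, n = 3). The median SD of all 11 described targets was 0.62 times the prior SD, against 0.86 over all genes tested.

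The family's own motif was more frequent in promoters of genes that were above background. With 1 window per gene, the most upstream, CCGGAAGT stood in 789 of 9801 windows (8.05%) of genes above background on all 3 arrays and in 65 of 5065 (1.28%) of genes above it on no array. These windows also differ in base composition, with medians of 20 and 4 CpG sites, and the motif contains a CpG. Among windows with 15 or more CpG sites the shares were 9.88% (669 of 6768) and 3.21% (32 of 996), and among those with 5 to 14 they were 5.56% (118 of 2121) and 1.96% (27 of 1380). Among windows with 0 to 4 CpG sites CCGGAAGT was rare in both, at 0.219% (2 of 912) and 0.223% (6 of 2689). The PU.1 and SPI-B spelling GAGGAAGT had the opposite setting: in the windows with 0 to 4 CpG sites it stood in 6.47% (59 of 912) of genes above background on all arrays and in 2.45% (66 of 2689) of genes above it on none, against 2.29% and 1.41% in windows with 15 or more. These shares describe letters in RefSeq windows, were not tested, and say nothing of binding in these cells.

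**Figure D4:**
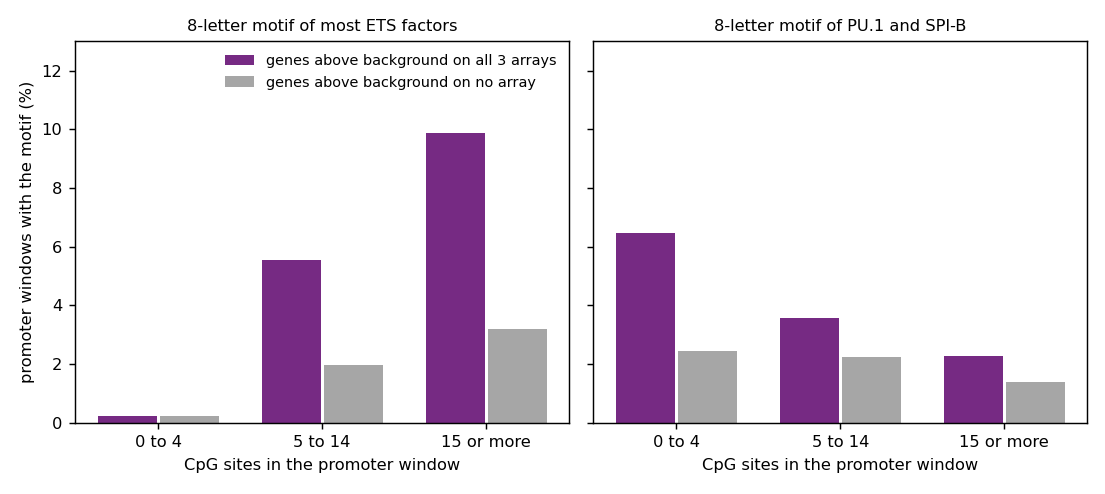
Share of promoter windows, in percent, that hold the 8-letter motif of most ETS factors (left) or of PU.1 and SPI-B (right), by the number of CpG sites in the window, for genes above background on all 3 arrays (purple) and on no array (grey). The left bars reach 9.88% in CpG-rich windows and the right bars 6.47% in CpG-poor windows, both for genes above background.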

How the data were processed

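Per the labels' protocols, Trizol was used to extract total thymocyte RNA of 3 mice, which was biotin-labelled for MoGene 1.0 ST arrays. The deposited values are log2 levels, 1 per probe set and array; per the submitters' processing notes, Affymetrix Expression Console made them. The background correction, summarisation, normalisation and software version were not given in the sources used here. Names came from the platform annotation: of 35557 probe sets, 21789 had 1 symbol, 1621 several and 12147 were not listed. They covered 19938 genes, and 0 symbols needed updating through Entrez identifiers. Of 152 symbols on the lists, 145 were measured.

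The spread between mice was tested with limma 3.58.1 (R 4.3.3): an intercept fit, a plain, level-trended prior variance with 10.4 prior degrees of freedom, an upper-tail F ratio and Benjamini-Hochberg adjustment. The script was tested on simulated data. The members and lists were chosen with earlier results of these data known. Named genes are the 10 members, the other ETS genes, partners and targets on the lists, the leading 3 of each marker list where measured, and markers that passed the test. Promoter windows come from RefSeq (GRCm38.p6). No genome build is given for the probes.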

Additional observations from a re-analysis of the deposited data

How the results depend on the processing

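The call of 8 ETS genes above background was compared with quantile normalisation, centring on the median, cyclic loess, the probe set with the highest mean, the 99th percentile and each mouse left out; the count ranged from 7 to 9, and that of the other ETS genes from 8 to 11. The count of ETS genes that varied between mice was 0 in all 11 alternatives run, which also included a robust prior, a prior with no trend, all named genes, and genes above background on all arrays. The count of all genes that varied, 30, was 18 after quantile normalisation, 18 after cyclic loess and 44 with a robust prior, and it ranged from 48 to 84 with a mouse left out; the cause was not tested. The unadjusted p of Spi1 depended on which mice were included. It was 0.037 with all 3 mice, 0.53 without mouse 92, 0.0040 without mouse 103 and 0.080 without mouse 106 (limma). The SD of Spi1 was 0.62 times the prior SD without mouse 92 (adjusted p = 0.998, limma). It was 3.22 times without mouse 103 (adjusted p = 0.35, limma) and 1.75 times without mouse 106 (adjusted p = 0.97, limma). With all named genes tested, Erg entered the limma test and did not pass (adjusted p = 0.995). In that setting the unadjusted p was under 0.05 for both Erg (0.045) and Spi1 (0.027, limma). Signals near the background limit Erg, Spi1 and Spib. No paired analysis was possible because the labels give 1 group.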
